A study of Mus musculus with 8 samples.

Results

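The genes described here encode the ADAM, ADAMTS and MMP metalloproteases, the ADAMTS-like proteins and the TIMPs, the tissue inhibitors of metalloproteases. The choice was made with earlier results of these data known. Members were taken by name, as the symbols Adam, Adamts, Adamtsl, Mmp or Timp directly followed by a digit. This rule gave 83 of the 23284 genes in the table: 32 ADAM, 19 ADAMTS, 5 ADAMTS-like, 23 MMP and 4 TIMP genes. RNA was sequenced from wild-type C57BL/6J mouse whole-brain cells sorted with magnetic beads against GLAST, the glutamate transporter that radial glia and astrocytes carry and that Slc1a3 encodes. There were 4 libraries of day 8 after birth (P8), labelled astrocyte precursors, and 4 of the day of birth (P0), labelled radial glia, and the labels give no treatment or altered allele in either group. They are called P8 1 to P8 4 and P0 1 to P0 4 after their replicate numbers, and values of an age are given in that order. The labels do not say whether replicates were separate animals, litters or pools, so each p-value is measured against the spread of these libraries alone, which may be technical. No unsorted or GLAST-negative library was analysed here, so enrichment by the sort was not tested.

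ADAM proteins sit in the cell membrane and cut the outer parts of neighbouring membrane proteins free, a step known as shedding. ADAMTS proteins are secreted, bind the matrix and cut large proteoglycans and procollagens, and ADAMTS-like proteins share their binding domains without a protease. MMPs cut matrix proteins from the cell surface or in solution, and TIMPs plug the active sites of MMPs and of some ADAM and ADAMTS proteins. In the developing brain these enzymes act on Notch, cadherins, neuregulins and amyloid precursor protein, and on the proteoglycans that astrocytes lay down around neurons.

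The ADAM, ADAMTS and MMP families share a short stretch of code, though not in every ADAM gene. It is shown because it sets members with a zinc-binding site apart from members without one. The enzymes hold a zinc ion with 3 histidines spaced over 11 residues, with a glutamate after the first of them. Codons for this pattern were found in the coding sequence of 61 of the 83 members (GENCODE M1): 23 of 23 MMP, 19 of 19 ADAMTS and 19 of 32 ADAM genes, but 0 of 5 ADAMTS-like and 0 of 4 TIMP genes. The stretches of 8 members that the results turn on are given 5′ to 3′ on the coding strand, with the 3 histidine codons in capitals.
Mmp14: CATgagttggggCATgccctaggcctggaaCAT
Mmp24: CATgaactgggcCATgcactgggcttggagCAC
Mmp2: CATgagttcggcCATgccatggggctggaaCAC
Adam10: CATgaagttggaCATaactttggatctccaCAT
Adam17: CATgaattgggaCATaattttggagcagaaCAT
Adam12: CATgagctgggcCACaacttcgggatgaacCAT
Adamts1: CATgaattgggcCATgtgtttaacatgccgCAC
Adamts2: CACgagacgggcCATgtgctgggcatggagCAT
In build NCBIM37, which mm9 stands for, the Mmp14, Mmp24 and Mmp2 sites lie in coding exons at chr14:55056464-55056496, chr2:155633163-155633195 and chr8:95363178-95363210, all on the plus strand. Those of Adam17 and Adam12 lie at chr12:21342593-21342625 and chr7:141152841-141152873, both on the minus strand and within 1 coding exon each. The sites of Adam10, Adamts1 and Adamts2 are each split by an intron, over chr9:70602103-70609392 (plus strand), chr16:85799436-85799790 (minus strand) and chr11:50588905-50589636 (plus strand). The eighth codon of the stretch encodes glycine in 55 of the 61 members. It encodes asparagine in 5, Adamts1, Adamts4, Adamts9, Adamts15 and Adamts20, and another residue in Adamts8, so these 6 of the 7 proteoglycan-cutting ADAMTS genes stand apart in sequence, with Adamts5 the exception. Among the 13 ADAM genes without the site were Adam11, Adam22 and Adam23, the members known from neurons.

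Total counts were 63131890 to 94308235 in the P8 libraries and 30708719 to 54615722 in the P0 libraries. Levels are given as CPM (counts scaled to a common library total) or, where genes are set against each other, as RPKM (CPM per kilobase of gene length), both as the authors deposited them. A count of 0 allows up to 3 counts, which is 0.0318 to 0.0475 CPM in the P8 libraries and 0.0549 to 0.0977 CPM in the P0 libraries, counting error only. Differences were tested with edgeR over all genes, and a gene was called at a Benjamini-Hochberg adjusted p under 0.05. Slc1a3, the gene of the sorted antigen, was read at 3718 to 5029 CPM in the P8 libraries and 228 to 331 CPM in the P0 libraries. Markers of astrocytes were higher at P8 for 6 of 8 genes, with sums of 12466 to 14705 CPM in the P8 libraries and 1407 to 2022 CPM in the P0 libraries. Markers of other cells were also read at both ages, none of them at 0 throughout an age. Choroid plexus markers were lower for 6 of 6 genes (206 to 3100.4 CPM in the P8 libraries and 26103 to 64648 CPM in the P0 libraries). Those of pericytes, smooth muscle and meninges were lower for 5 of 8 (338 to 851 CPM in the P8 libraries and 3842 to 7234 CPM in the P0 libraries), and endothelial markers for 5 of 6 (218 to 466 CPM in the P8 libraries and 1256 to 1847 CPM in the P0 libraries). Microglia markers were higher for 5 of 6 (985 to 3362 CPM in the P8 libraries and 284 to 859 CPM in the P0 libraries), oligodendrocyte markers for 4 of 5 (364 to 2039.8 CPM in the P8 libraries and 129 to 329.9 CPM in the P0 libraries) and neuron markers for 6 of 6 (79.9 to 541 CPM in the P8 libraries and 20.1 to 76.7 CPM in the P0 libraries), with P8 2 the lowest P8 library for oligodendrocytes and neurons. Oligodendrocyte precursor markers were higher for 2 and lower for 1 of 4 (416 to 1321 CPM in the P8 libraries and 442 to 571 CPM in the P0 libraries). In such bulk samples, fewer cells of a type and less RNA per cell cannot be told apart, and the part of these other cells in the results on proteases was not tested.

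Of the 83 genes, 57 passed the filter on low counts and were tested, 12 were read but fell below it and 14 had no read in any library. Of the 57, 27 were lower at P8, 13 were higher and 17 did not pass the test. Over all 16808 genes tested, 49.5% were called, 24.5% higher and 25% lower. The members called higher made up 22.8% of those tested, close to that background, and the members called lower 47.4%. Called falls of at least 2-fold were estimated for 24 members, 42.1% of the 57, against 16.7% of all genes tested. These falls include Mmp8 and Adam7, which passed the filter through the P0 libraries alone, so their direction went with the filter. With a filter of 1 CPM in 4 libraries, which drops Mmp8 and Adam7, 25 of 54 tested members were lower and 13 higher. Called rises of at least 2-fold were estimated for 8 members, 14% of the 57, close to the 14.8% of all genes tested. The median log2 fold change of P8 over P0 was -0.68 over the 57 and 0.04 over all genes tested. The libraries of the ages did not overlap in CPM for 40 of the 57 members (70.2%), against 47.2% of all genes tested. These shares describe the genes that passed the filter and were not tested against other lists. The exons of 13 tested members overlap those of another annotated gene, a protein-coding gene for 8 of them, and as the library kit does not mark strand, reads in such overlaps could have been counted for either.

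**Figure D1:**
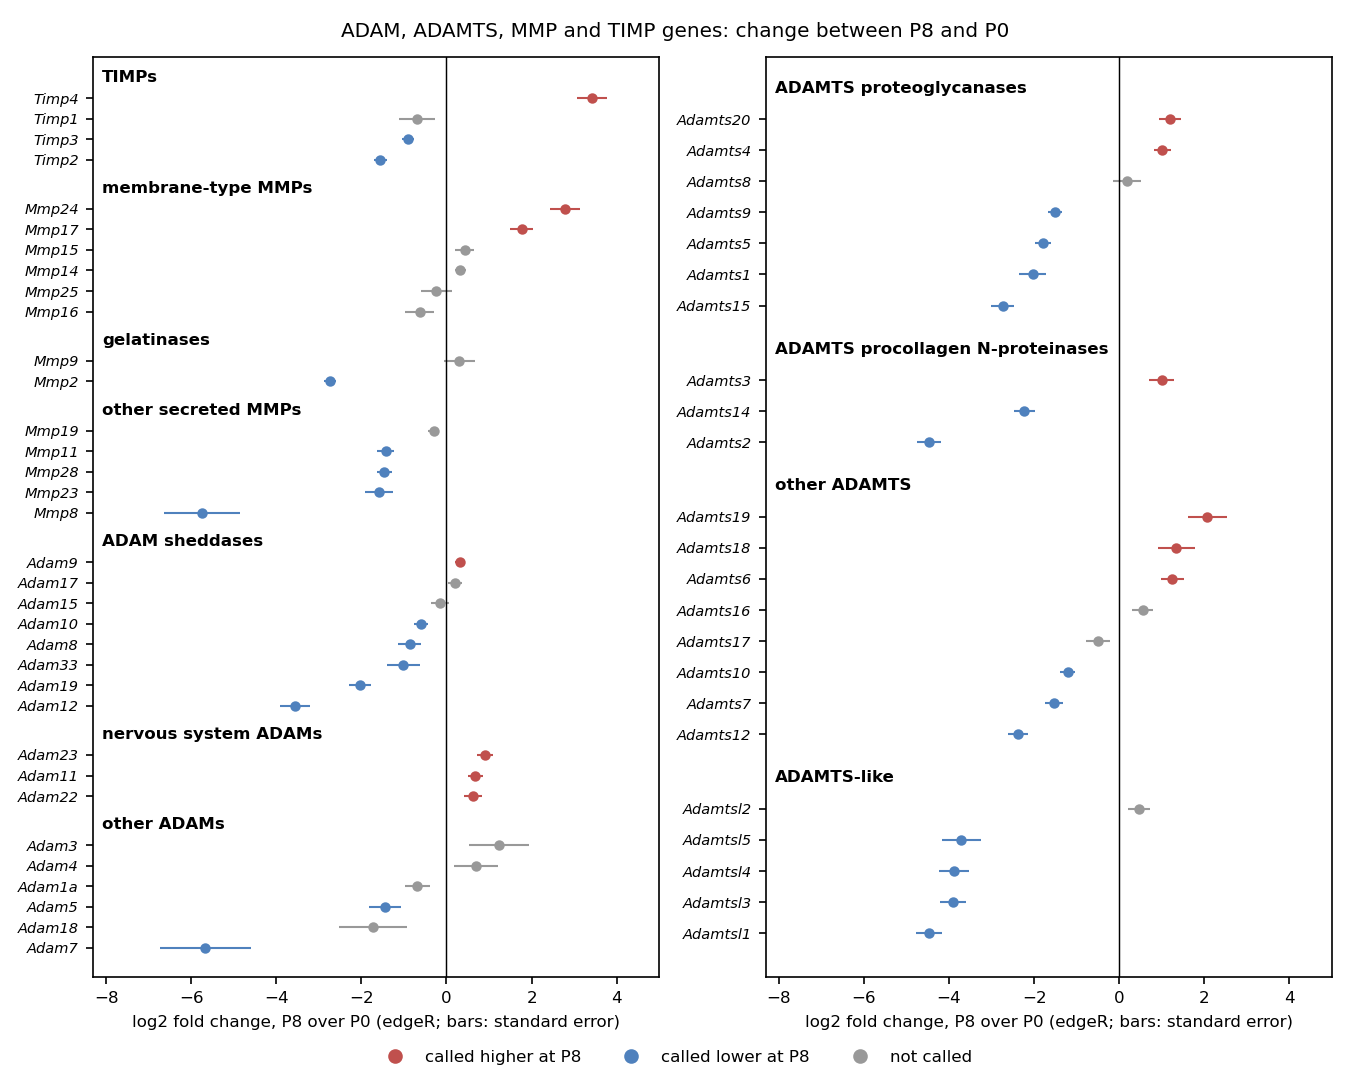
Log2 fold changes of P8 over P0 on the x axis (points; bars are standard errors of the edgeR fit) for the 57 tested genes, grouped by role. Red points were called higher at P8, blue points lower and grey points were not called. Falls reach beyond -3 in 4 ADAMTS-like genes, Adamts2, Adam12 and the scarcely read Adam7 and Mmp8, and Timp4 has the highest value at 3.41.

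The TIMP genes changed places. Timp4 rose 10.6-fold to become the TIMP with the most RNA per length at P8, and Timp2 and Timp3, which led at P0, fell. Timp4, an inhibitor known mainly from heart and brain, had 139, 141, 110.2 and 146 CPM in the P8 libraries, against 15.7, 5.15, 14.4 and 17.9 CPM in the P0 libraries. Every P8 library lay above every P0 library (log2 fold change 3.41 ± 0.35 (SE), edgeR adjusted p = 4.63e-05). Timp2, which can block MMPs but also helps the membrane protease of Mmp14 to activate the product of Mmp2, had 135, 158, 134 and 111 CPM in the P8 libraries, against 394, 456, 458 and 376 CPM in the P0 libraries. The ages did not overlap, and Timp2 was 2.95-fold lower at P8 (log2 fold change -1.56 ± 0.16 (SE), edgeR adjusted p = 3.88e-05). Timp3, the TIMP that binds to the matrix and also blocks the proteases of Adam17 and several ADAMTS genes, had 321, 299, 290.3 and 328 CPM in the P8 libraries, against 604, 600.4, 746 and 497 CPM in the P0 libraries. It was 1.87-fold lower at P8, again without overlap (log2 fold change -0.90 ± 0.15 (SE), edgeR adjusted p = 0.0008). Exons of Timp3 overlap those of Syn3 on the other strand. Timp1, the TIMP that injury induces in many tissues, had 7.45, 5.76, 6.13 and 8.04 CPM in the P8 libraries, against 19.8, 3.58, 9.41 and 13.6 CPM in the P0 libraries. The ages overlapped through P0 2, the lowest of all 8 libraries, and the difference did not pass the test (log2 fold change -0.69 ± 0.43 (SE), edgeR adjusted p = 0.208). Without P0 2, Timp1 was called lower at P8 (log2 fold change -0.99, edgeR adjusted p = 0.0169). Summed astrocyte, microglia, oligodendrocyte and neuron markers were higher at P8 in the same libraries. Those of choroid plexus, of endothelial cells and of pericytes, smooth muscle and meninges were lower. The part of these cells in the TIMP changes was not tested.

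On the RPKM scale, which allows genes to be compared, Timp4 stood at 94.7 ± 11.4 RPKM at P8 and 9.38 ± 3.97 RPKM at P0 (SD, n = 4 each). Timp3 stood at 66.1 ± 3.83 RPKM at P8 and 131 ± 21.9 RPKM at P0, Timp2 at 37.1 ± 5.33 RPKM at P8 and 116 ± 11.6 RPKM at P0 and Timp1 at 7.69 ± 1.21 RPKM at P8 and 13 ± 7.67 RPKM at P0. At P8 the order was Timp4, Timp3, Timp2 and Timp1 in every library. At P0 Timp3 and Timp2 overlapped in their range and stood above Timp1 and Timp4, which also overlapped. Of the summed RPKM of the 4 genes, Timp4 made up 46.3, 46.6, 42.4 and 48.5% in the P8 libraries and 4.08, 1.39, 3.32 and 5.33% in the P0 libraries. The share of Timp2 was 18.1 ± 2.82% at P8 and 43.3 ± 3.53% at P0. The sum itself moved less but was lower at P8 without overlap. It was 213, 213, 184 and 213 RPKM in the P8 libraries and 271, 262, 307 and 238 RPKM in the P0 libraries. Timp4 lies at chr6:115195634-115201867 (minus strand) (NCBIM37), Timp2 at chr11:118162383-118217054 (minus strand) and Timp3 at chr10:85763117-85812251 (plus strand).

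**Figure D2:**
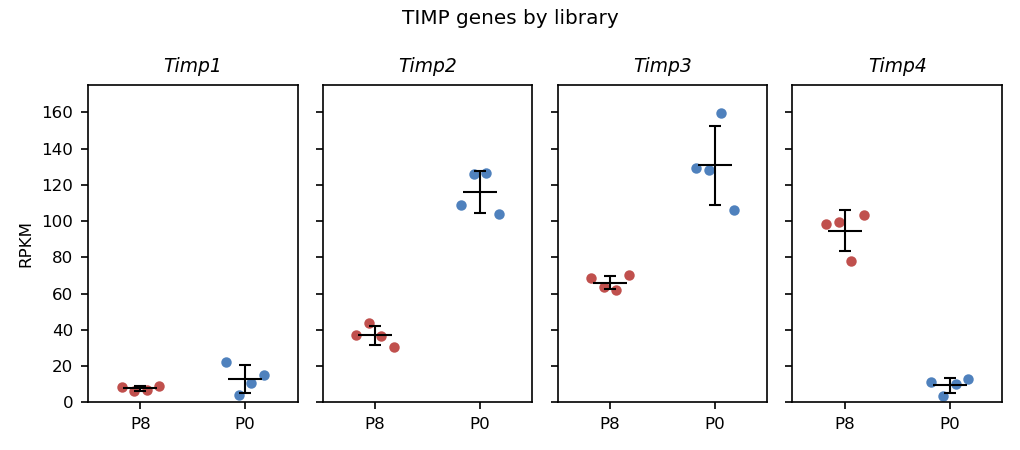
RPKM (y axis, linear from 0) of the 4 TIMP genes in each library (points), with P8 libraries left of P0 libraries in each panel and horizontal lines and bars for mean and SD (n = 4). Timp4 is high at P8 and low at P0, and Timp2 and Timp3 are the other way round.

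The promoters of the 3 TIMP genes that changed are shown because that of Timp4 differs from those of Timp2 and Timp3 in composition. Each runs from 250 bases before to 50 after the start in the RefSeq table (GRCm38.p6), and capitals mark GC boxes (GGGCGG on either strand). The AP-1 element (TGANTCA) and the TATA box (TATAAA) were also searched on both strands and were not found in these 3 windows, and no matches overlapped.
Timp4: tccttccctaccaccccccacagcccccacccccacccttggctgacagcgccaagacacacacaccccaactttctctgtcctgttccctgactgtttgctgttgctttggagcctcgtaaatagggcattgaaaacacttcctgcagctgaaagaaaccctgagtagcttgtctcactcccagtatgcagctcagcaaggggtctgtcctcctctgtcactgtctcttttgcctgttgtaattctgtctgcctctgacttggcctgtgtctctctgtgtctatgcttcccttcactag
Timp3: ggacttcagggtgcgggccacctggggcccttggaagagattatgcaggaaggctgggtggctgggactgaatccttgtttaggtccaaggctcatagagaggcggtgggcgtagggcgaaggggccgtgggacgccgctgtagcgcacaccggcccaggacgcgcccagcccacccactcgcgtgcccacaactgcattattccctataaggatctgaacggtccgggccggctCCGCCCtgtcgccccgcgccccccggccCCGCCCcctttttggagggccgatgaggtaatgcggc
Timp2: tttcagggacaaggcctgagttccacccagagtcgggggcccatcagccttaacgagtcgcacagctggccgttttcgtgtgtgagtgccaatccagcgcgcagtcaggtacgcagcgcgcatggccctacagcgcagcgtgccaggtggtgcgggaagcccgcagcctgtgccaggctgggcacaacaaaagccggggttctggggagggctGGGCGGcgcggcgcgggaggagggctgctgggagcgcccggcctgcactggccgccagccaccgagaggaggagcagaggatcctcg
These lie at chr6:115252156-115252455 on the minus strand for Timp4, chr10:86300162-86300461 on the plus strand for Timp3 and chr11:118355362-118355661 on the minus strand for Timp2. The Timp4 window holds 2 CpG dinucleotides and no GC box, the Timp3 window 24 CpG and 2 GC boxes and the Timp2 window 25 CpG and 1 GC box. Timp1, which was not called, has 8 CpG and 1 GC box in its window. Over all 32851 promoters of the table the median was 7 CpG, and 35.7% held a GC box, 13.6% a TATA box and 7.81% an AP-1 element. Windows of the other members called higher held 19 to 44 CpG, and those of members called lower 4 to 46. The contrast among the TIMP genes thus did not extend to the other members called. These letters are a description of the windows, and no binding was measured.

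Of the 6 membrane-type MMP genes, Mmp24 and Mmp17 rose (33.3%), none fell and 4 did not pass the test. Over all genes tested, 24.5% rose and 25% fell. Of the 7 other MMP genes tested, 5 fell, Mmp2 among them. Mmp14 encodes the protease MT1-MMP, which cuts collagen and activates the product of Mmp2. It had the highest mean RPKM of all members at P8 and was read at 279.7, 296, 311 and 279 CPM in the P8 libraries, against 282, 243, 244 and 213 CPM in the P0 libraries. The ages overlapped through P0 1, and the difference did not pass (log2 fold change 0.33 ± 0.13 (SE), edgeR adjusted p = 0.0597). Without P0 1, Mmp14 was called higher at P8 (log2 fold change 0.41, edgeR adjusted p = 0.018), and so it was by DESeq2 (adjusted p = 0.0339). Mmp24, whose product MT5-MMP is known from neurons, had 68.7, 20.4, 80.5 and 60.8 CPM in the P8 libraries, against 8.71, 8.66, 7.73 and 9.76 CPM in the P0 libraries. All P8 libraries stood above the P0 libraries, P8 2 far below its group (log2 fold change 2.79 ± 0.36 (SE), edgeR adjusted p = 0.000169). P8 2 was also the P8 library with the least of the neuron markers, with a sum of 79.9 CPM against 428 CPM or more in the others. It was likewise lowest of its age for oligodendrocyte markers (364 CPM) and oligodendrocyte precursor markers (416 CPM). The part of these cells in the Mmp24 level was not tested. Mmp17, whose product MT4-MMP is tied to the membrane by a lipid anchor, had 19, 17.6, 30.6 and 19.8 CPM in the P8 libraries, against 9.32, 5.31, 4.8 and 7.38 CPM in the P0 libraries. It was 3.40-fold higher at P8 without overlap (log2 fold change 1.77 ± 0.27 (SE), edgeR adjusted p = 0.00048).

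Among the members not called, Mmp15 (MT2-MMP) stood at 134 ± 42.9 CPM at P8 and 105 ± 24.6 CPM at P0, Mmp16 (MT3-MMP) at 11.8 ± 4.06 CPM at P8 and 19.1 ± 8.35 CPM at P0 and Mmp25, known from leukocytes, at 3.08 ± 1.24 CPM at P8 and 3.81 ± 1.36 CPM at P0. Their edgeR adjusted p-values were 0.137, 0.143 and 0.61. Exons of Mmp17 and Mmp24 overlap non-coding genes, a microRNA and a lincRNA. Summed over the 6 genes, the level was 159.9, 152, 199 and 156 RPKM in the P8 libraries and 139.7, 136, 127 and 111 RPKM in the P0 libraries. This was 90.7 ± 0.816% of the RPKM of all 23 MMP genes at P8 and 68.8 ± 2.59% at P0, and the ranges of the ages did not overlap in either measure. Mmp14 alone made up 61.5 ± 5.1% of the MMP sum at P8 and 50.7 ± 3.91% at P0. Mmp14 lies at chr14:55050441-55060095 (plus strand) and Mmp24 at chr2:155601078-155644102 (plus strand).

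Of the gelatinases, which cut denatured collagen and basement membrane, Mmp2 fell and Mmp9 did not pass the test. Mmp2 had 12.7, 12.7, 17.6 and 14 CPM in the P8 libraries, against 86.3, 108, 109 and 100.2 CPM in the P0 libraries. The libraries of each age were close together and far from those of the other, a 6.71-fold lower level at P8 (log2 fold change -2.75 ± 0.14 (SE), edgeR adjusted p = 2.08e-06). Its share of the MMP sum was 2.38, 2.47, 2.65 and 2.67% in the P8 libraries and 14.7, 18, 19.1 and 19.8% in the P0 libraries. The summed pericyte, smooth muscle and meningeal markers were also lower at P8 (338 to 851 CPM) than at P0 (3842 to 7234 CPM). The part of these cells in the Mmp2 level was not tested. Mmp9, which leukocytes and activated glia release, had 4.08, 9.63, 7.43 and 3.19 CPM in the P8 libraries, against 4.97, 6.06, 5.9 and 4.08 CPM in the P0 libraries. The ages overlapped and the difference did not pass (log2 fold change 0.30 ± 0.36 (SE), edgeR adjusted p = 0.505), with a log2 fold change of -0.045 without P8 2. The products of Timp2 and Mmp14 act together on that of Mmp2 at the cell surface. The ratio of Timp2 over Mmp14 in RPKM was 0.347, 0.383, 0.308 and 0.285 in the P8 libraries and 1.001, 1.34, 1.35 and 1.27 in the P0 libraries, without overlap. Mmp2 lies at chr8:95351227-95377316 (plus strand).

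**Figure D3:**
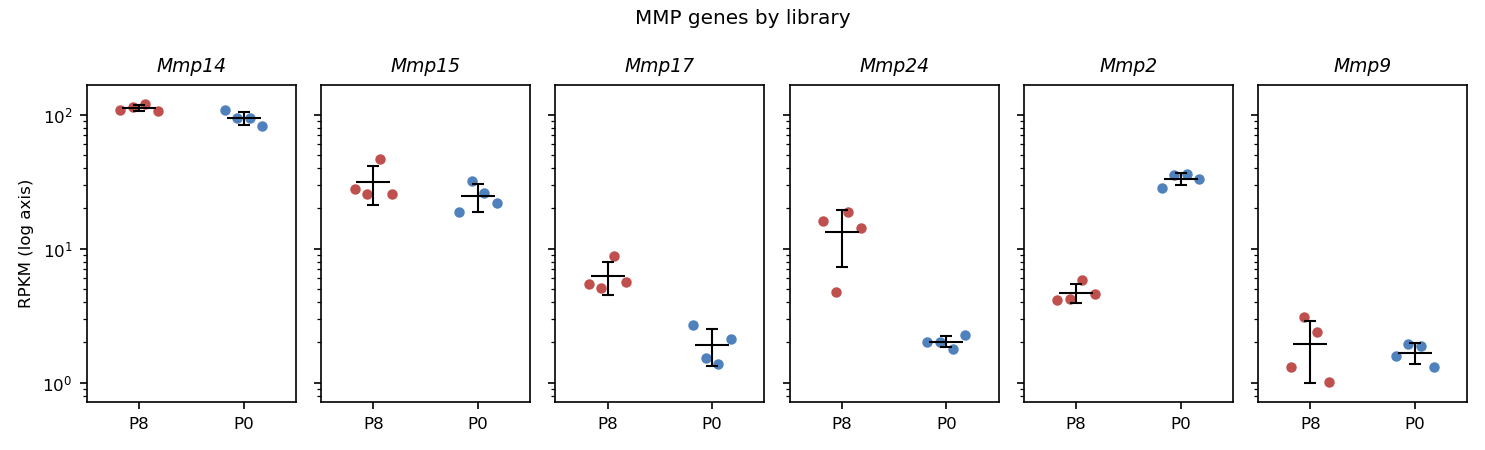
RPKM on a log y axis for 4 membrane-type MMP genes and the gelatinase genes Mmp2 and Mmp9, by library (points), with P8 left of P0 and lines and bars for mean and SD (n = 4). Mmp14 is the highest of the 6 at both ages, Mmp17 and Mmp24 are higher at P8, and Mmp2 is lower at P8.

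Among the 15 MMP genes outside these groups, 5 were tested and 4 of them fell (80%), against 25% of all genes tested. Mmp11 encodes stromelysin 3, an MMP of stromal cells that is activated inside the cell, and had 3.42, 4.77, 5.46 and 5.17 CPM in the P8 libraries, against 11.3, 16.1, 12.4 and 13.7 CPM in the P0 libraries. It was 2.69-fold lower at P8 without overlap (log2 fold change -1.43 ± 0.20 (SE), edgeR adjusted p = 0.000315). Mmp28, the gene of epilysin, had 5.4, 5.24, 7.82 and 6.19 CPM in the P8 libraries, against 18.6, 18.7, 19.98 and 13.9 CPM in the P0 libraries. It was 2.75-fold lower (log2 fold change -1.46 ± 0.19 (SE), edgeR adjusted p = 0.00018), and exons of both genes overlap a neighbouring protein-coding gene. Mmp23 was lower at low levels, with 1.08 ± 0.144 CPM at P8 and 3.41 ± 1.17 CPM at P0 (edgeR adjusted p = 0.00317). Mmp19 stood at 16.3 ± 0.859 CPM at P8 and 21.3 ± 1.24 CPM at P0 and did not pass (edgeR adjusted p = 0.0899), although its ages did not overlap. Mmp8, the collagenase of neutrophils, was read 8 times in the P8 libraries together and 317 times in the P0 libraries (edgeR adjusted p = 0.000556). It passed the filter through the P0 libraries alone, and its P8 mean was 0.0309 CPM, or 0.00949 CPM without P8 3. Neutrophil markers were lower for 3 of 5 genes in the same libraries, none at 0 throughout an age, with sums of 0.958 to 4.94 CPM in the P8 libraries and 7.52 to 22.6 CPM in the P0 libraries, and their part in the Mmp8 level was not tested.

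Mmp8 belongs to a row of 10 neighbouring MMP genes on chromosome 9 between 7272514 and 7699585 (NCBIM37), which were nearly silent. In order they are Mmp13, Mmp12, Mmp1b, Mmp3, Mmp1a, Mmp10, Mmp8, Mmp27, Mmp20 and Mmp7. The 10 genes together had 111 counts in the P8 libraries and 354 in the P0 libraries, Mmp8 included, and 6 of them had no read in any library. The promoters of 8 of the 10 hold an AP-1 element and a TATA box in 1 window, which 1.54% of all promoters of the table do, with Mmp8 (a TATA box only) and Mmp27 (neither) the exceptions. The windows of Mmp3, a stromelysin, and Mmp13, a collagenase, are shown as examples of this arrangement, with both elements in capitals.
Mmp3: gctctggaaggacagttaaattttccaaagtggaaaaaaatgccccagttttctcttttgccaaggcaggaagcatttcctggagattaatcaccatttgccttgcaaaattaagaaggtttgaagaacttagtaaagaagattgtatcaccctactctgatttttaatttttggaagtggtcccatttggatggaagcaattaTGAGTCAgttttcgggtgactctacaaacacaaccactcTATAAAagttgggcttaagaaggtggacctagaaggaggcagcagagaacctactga
Mmp13: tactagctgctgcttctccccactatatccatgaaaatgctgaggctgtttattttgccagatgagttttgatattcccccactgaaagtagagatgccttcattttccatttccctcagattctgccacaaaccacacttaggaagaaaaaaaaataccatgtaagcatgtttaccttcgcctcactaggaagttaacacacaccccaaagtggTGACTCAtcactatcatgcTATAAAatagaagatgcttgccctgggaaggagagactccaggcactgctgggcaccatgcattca
They lie at chr9:7445572-7445871 on the plus strand for Mmp3 and chr9:7272264-7272563 on the plus strand for Mmp13 (RefSeq, GRCm38.p6). Over the whole set, 52 of the 83 members had a promoter in the table. Of the 19 that were not tested for want of reads, 11 held an AP-1 element, 12 a TATA box and 1 a GC box, with a median of 1 CpG. The chromosome 9 row gave 8 of these 11 AP-1 elements, and of the 10 untested members outside it 3 held an AP-1 element (Adam1b, Adam25 and Adam29), 4 a TATA box and 1 both. Of the 33 that were tested, 1 held an AP-1 element, 3 a TATA box and 26 a GC box, with a median of 22 CpG. Where a member has several promoters, it was counted if any held the motif.

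Among the 8 tested ADAM genes known as sheddases, 5 fell (62.5%) and 1 rose (12.5%). Over all genes tested, 25% fell and 24.5% rose. The largest falls of the sheddases were in the meltrin genes Adam12 and Adam19. Adam10, the main sheddase of Notch receptors, N-cadherin and amyloid precursor protein, had 141, 163, 153 and 129 CPM in the P8 libraries, against 233, 302, 218 and 191 CPM in the P0 libraries. It was 1.52-fold lower at P8 without overlap (log2 fold change -0.60 ± 0.16 (SE), edgeR adjusted p = 0.0125). Adam17, which frees tumour necrosis factor and ligands of the EGF receptor, had 110.2, 135, 106 and 104 CPM in the P8 libraries, against 103, 132, 86.4 and 96.9 CPM in the P0 libraries. The ages overlapped and the difference did not pass (log2 fold change 0.21 ± 0.17 (SE), edgeR adjusted p = 0.328), and exons of Adam17 overlap those of Iah1. Adam15 stood at 164 ± 41.9 CPM at P8 and 194 ± 34.2 CPM at P0 (edgeR adjusted p = 0.576). Adam9 stood at 207 ± 8.59 CPM at P8 and 175 ± 18.2 CPM at P0 and was called higher by a small margin (log2 fold change 0.32, edgeR adjusted p = 0.0495). Leaving out any 1 library except P0 2 ended the call, with edgeR adjusted p up to 0.128. Adam9, Adam10, Adam15 and Adam17 together made up 87.6, 89.6, 84.5 and 85.4% of the summed RPKM of all ADAM genes in the P8 libraries and 76.1, 76.5, 80.9 and 80.9% in the P0 libraries.

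Adam12 and Adam19 are known from muscle, bone and connective tissue. Adam12 had 13.8, 10.6, 26.3 and 14.3 CPM in the P8 libraries, against 286, 244, 148 and 126 CPM in the P0 libraries. All P8 libraries lay below all P0 libraries, an 11.8-fold difference (log2 fold change -3.56 ± 0.36 (SE), edgeR adjusted p = 3.98e-05). Adam19, whose protease sheds neuregulin, had 8.15, 7.28, 13.8 and 11.3 CPM in the P8 libraries, against 40.6, 64.1, 36.4 and 32.9 CPM in the P0 libraries. It was 4.08-fold lower at P8 (log2 fold change -2.03 ± 0.26 (SE), edgeR adjusted p = 0.000182), and its exons overlap non-coding transcripts on the other strand. In the same libraries the summed pericyte, smooth muscle and meningeal markers were 338 to 851 CPM in the P8 libraries and 3842 to 7234 CPM in the P0 libraries, and their part in these falls was not tested. Adam8, known from leukocytes, stood at 2.52 ± 0.504 CPM at P8 and 4.88 ± 1.24 CPM at P0 (edgeR adjusted p = 0.022), and leaving out P0 3, P8 1 or P8 4 ended that call (0.0669, 0.071 and 0.0579). Adam33, known from smooth muscle, stood at 4.1 ± 1.51 CPM at P8 and 8.8 ± 3.36 CPM at P0 (edgeR adjusted p = 0.0493). Leaving out P0 1, P0 2, P8 1, P8 3 or P8 4 ended that call, with edgeR adjusted p between 0.0731 and 0.129. Adam28, the other ADAM gene of this kind, was not tested and reached 0.458 CPM at most.

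The ADAM genes of neurons without the zinc site were all called higher at P8 (against 24.5% of all genes tested), by less than 2-fold. Their products bind the secreted LGI proteins and hold synaptic complexes in place. Adam23 had 36.2, 30.8, 47.3 and 37.6 CPM in the P8 libraries, against 14.7, 23.8, 24.5 and 22.3 CPM in the P0 libraries. The ages did not overlap (log2 fold change 0.91 ± 0.18 (SE), edgeR adjusted p = 0.00264). Adam11 had 26.8, 29.5, 32.8 and 29.3 CPM in the P8 libraries, against 23.1, 18.5, 22.3 and 14.3 CPM in the P0 libraries, again without overlap (log2 fold change 0.68 ± 0.17 (SE), edgeR adjusted p = 0.00903). Adam22, the receptor of LGI1, had 41.9, 36.1, 57 and 49 CPM in the P8 libraries, against 24, 46.1, 30.5 and 25.8 CPM in the P0 libraries. P0 2 lay among the P8 libraries (log2 fold change 0.62 ± 0.22 (SE), edgeR adjusted p = 0.0372), and leaving out any 1 library except P0 2 and P8 2 ended the call, with edgeR adjusted p between 0.062 and 0.0984. In P8 2, Adam22 and Adam23 were lowest of their age. Neuron, oligodendrocyte and oligodendrocyte precursor markers were all lowest of the P8 libraries there. Adam11 had its lowest P8 level in P8 1 instead, and the part of these cells was not tested. The LGI genes themselves are named after their values were seen. Lgi1 stood at 4.49 ± 2.44 CPM at P8 and 27.1 ± 8.86 CPM at P0 and was lower (log2 fold change -2.52 ± 0.39 (SE), edgeR adjusted p = 0.000576). Lgi3 stood at 16.7 ± 5.77 CPM at P8 and 6.38 ± 2.84 CPM at P0 with overlapping ages and was higher (log2 fold change 1.46 ± 0.35 (SE), edgeR adjusted p = 0.00704). Lgi4 stood at 34 ± 1.51 CPM at P8 and 14.5 ± 5.04 CPM at P0 and was higher (log2 fold change 1.31 ± 0.23 (SE), edgeR adjusted p = 0.00116). Lgi2 stood at 1.42 ± 0.651 CPM at P8 and 1.56 ± 0.759 CPM at P0 and did not pass (edgeR adjusted p = 0.93).

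**Figure D4:**
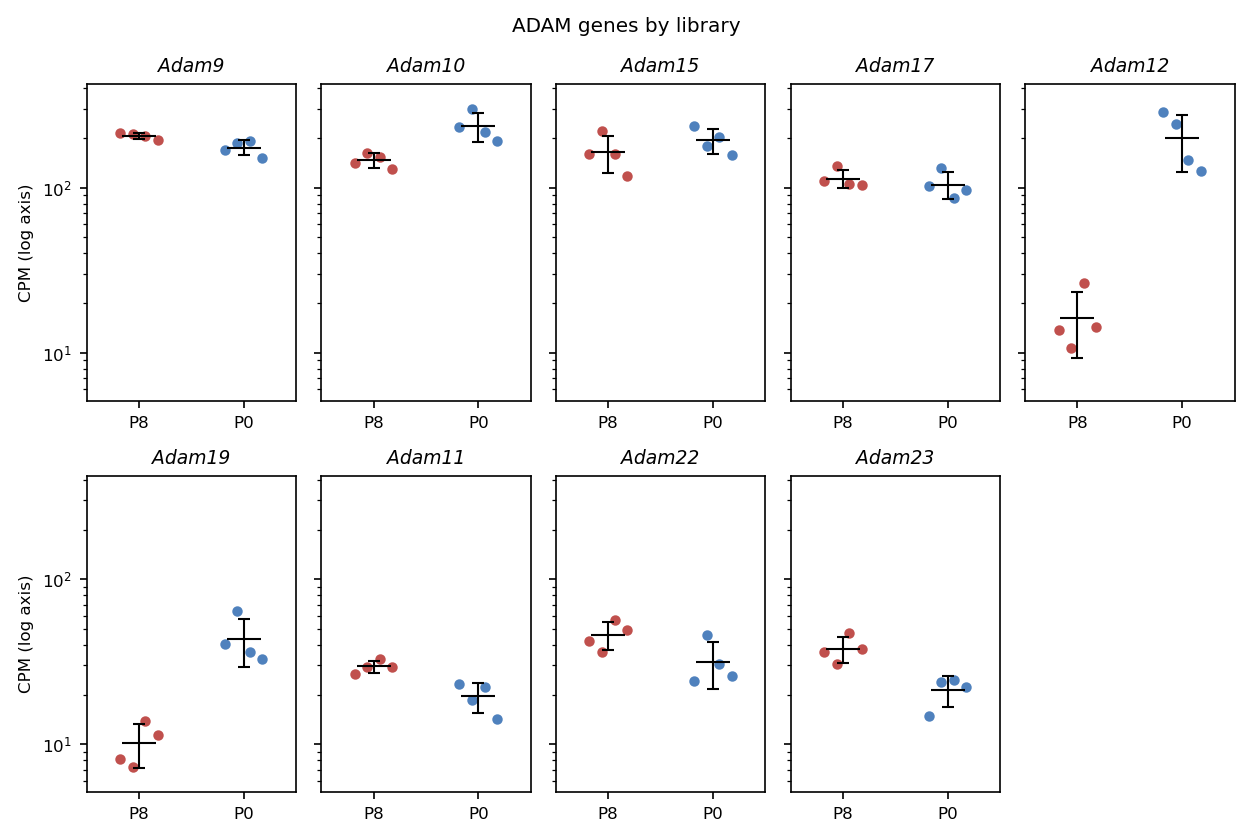
CPM on a log y axis for 9 ADAM genes by library (points), with P8 left of P0 and lines and bars for mean and SD (n = 4). Adam12 and Adam19 are lower at P8, and Adam10 is somewhat lower. Adam9, Adam15 and Adam17 differ little between the ages, and Adam11, Adam22 and Adam23 are somewhat higher at P8.

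The other 20 ADAM genes, known mostly from testis, epididymis and sperm, were close to silent. Of these, 6 were tested, and 2 were called lower (33.3%), near the 25% of all genes tested. Adam5 stood at 1.07 ± 0.486 CPM at P8 and 3.07 ± 0.978 CPM at P0 (edgeR adjusted p = 0.00938). Adam7, an epididymal gene, was read 4 times in the P8 libraries together, all in P8 4, and 157 times in the P0 libraries (edgeR adjusted p = 0.00182), and it too passed the filter through the P0 libraries alone. Adam1a, Adam3, Adam4 and Adam18 did not pass the test. Adam3 stood at 2.56 ± 1.37 CPM at P8 and 1.17 ± 0.776 CPM at P0 and Adam1a at 1.11 ± 0.221 CPM at P8 and 1.88 ± 0.403 CPM at P0. Adam1a shares the 33 bases of its zinc site with Adam1b, and reads within that stretch cannot be assigned with certainty. Longer stretches of these genes were not compared. Exons of Adam1a also overlap those of the protein-coding gene Mapkapk5 on the same strand. Adam24, Adam26a, Adam26b, Adam29, Adam30, Adam39, Adam6a and Adam6b had no read in any library.

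ADAMTS genes moved in both directions. Of the 18 tested, 9 were lower (50%) and 6 were higher (33.3%) at P8, against 25% and 24.5% of all genes tested. Their summed level was 67.5, 91.6, 81.5 and 69.2 RPKM in the P8 libraries and 281, 299, 325 and 207 RPKM in the P0 libraries, with no overlap. Among the proteoglycanases, Adamts1, which cuts versican and is induced in vessel and ovary cells, had 136, 199.7, 121 and 88.6 CPM in the P8 libraries, against 412, 655, 868 and 463 CPM in the P0 libraries. It had the second highest mean RPKM of all members at P0, after Timp3, and was 4.10-fold lower at P8 (log2 fold change -2.04 ± 0.31 (SE), edgeR adjusted p = 0.000532). Adamts15 had 7.32, 9.31, 9.52 and 8.04 CPM in the P8 libraries, against 83.8, 73.5, 44.1 and 39.7 CPM in the P0 libraries, a 6.69-fold lower level at P8 without overlap (log2 fold change -2.74 ± 0.27 (SE), edgeR adjusted p = 3.32e-05). Adamts5, the main aggrecan-cutting protease of mouse cartilage, had 9.17, 11.5, 9.19 and 9.29 CPM in the P8 libraries, against 29, 46.4, 34.4 and 33.9 CPM in the P0 libraries. It was 3.45-fold lower at P8 (log2 fold change -1.79 ± 0.18 (SE), edgeR adjusted p = 4.56e-05). Adamts9, a versican-cutting protease, had 29.9, 34.1, 39.9 and 34.9 CPM in the P8 libraries, against 132, 107, 100.04 and 79.6 CPM in the P0 libraries and was 2.86-fold lower (log2 fold change -1.52 ± 0.17 (SE), edgeR adjusted p = 7.47e-05). Exons of Adamts9 overlap 2 other annotated genes on the other strand. Adamts1 lies at chr16:85794072-85803358 (minus strand).

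Adamts4 and Adamts20 went the other way. Adamts4, which cuts aggrecan and brevican and is known from oligodendrocytes, had 17.4, 22.1, 23.5 and 22.7 CPM in the P8 libraries, against 9.75, 13, 14.3 and 7.88 CPM in the P0 libraries. All P8 libraries were above all P0 libraries (log2 fold change 1.01 ± 0.21 (SE), edgeR adjusted p = 0.00272). Adamts20, a close relative of Adamts9 that is known from pigment cell migration, had 9.95, 10.7, 15.4 and 14.8 CPM in the P8 libraries, against 4.19, 4.88, 9.05 and 5.3 CPM in the P0 libraries. It was 2.29-fold higher at P8 (log2 fold change 1.20 ± 0.27 (SE), edgeR adjusted p = 0.00441). Oligodendrocyte markers were higher for 4 of 5 genes in the same libraries, with sums of 364 to 2039.8 CPM in the P8 libraries and 129 to 329.9 CPM in the P0 libraries. In P8 2, the P8 library with the lowest of these sums, Adamts4 stood at 22.1 CPM, within the range of the other P8 libraries. The part of oligodendrocytes in the Adamts4 level was not tested. Adamts8 stood at 3.28 ± 1.06 CPM at P8 and 3.07 ± 0.961 CPM at P0 and did not pass (edgeR adjusted p = 0.681).

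The procollagen N-proteinases, which trim the ends of fibrillar procollagens, were split. Adamts2 fell furthest of the ADAMTS genes and had 7.45, 7.71, 10.01 and 8.82 CPM in the P8 libraries, against 299, 184, 185 and 126 CPM in the P0 libraries. The ages were far apart, at 22.3-fold (log2 fold change -4.48 ± 0.27 (SE), edgeR adjusted p = 3.85e-06). Adamts14 had 1.97, 2.89, 2.87 and 3.49 CPM in the P8 libraries, against 12.2, 16.2, 16.6 and 10.5 CPM in the P0 libraries and was 4.68-fold lower at P8 (log2 fold change -2.23 ± 0.24 (SE), edgeR adjusted p = 6e-05). Adamts3, which also processes a lymphatic growth factor and cuts reelin, had 9.81, 10.1, 12.3 and 8.6 CPM in the P8 libraries, against 2.85, 7.65, 4.67 and 6.57 CPM in the P0 libraries. It was higher at P8 without overlap (log2 fold change 0.997 ± 0.29 (SE), edgeR adjusted p = 0.018), and was not called once P0 3 was left out (0.0506). The ratio of Adamts2 to Adamts3 in RPKM was 1.56, 1.56, 1.66 and 2.1 in the P8 libraries and 215, 49.3, 81.4 and 39.3 in the P0 libraries. In the same libraries Col1a1, whose product these enzymes can trim, stood at 127 ± 92.5 CPM at P8 and 1235 ± 509 CPM at P0 (log2 fold change -3.23 ± 0.49 (SE), edgeR adjusted p = 0.000515). Col1a1 was named after its values were seen and is also one of the meningeal markers that were summed, and their part in the falls was not tested. Adamts2 lies at chr11:50415586-50621075 (plus strand).

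Among the other ADAMTS genes, the close relatives Adamts10 and Adamts6 moved in opposite directions, as Adamts9 and Adamts20 did. Adamts10, which binds fibrillin, had 45.1, 61.3, 68.9 and 65.5 CPM in the P8 libraries, against 165, 156, 158 and 111 CPM in the P0 libraries and was 2.32-fold lower at P8 (log2 fold change -1.21 ± 0.17 (SE), edgeR adjusted p = 0.000307). Its relative Adamts6 had 10.9, 14.9, 20.5 and 15.4 CPM in the P8 libraries, against 4.31, 9.67, 7.42 and 6.06 CPM in the P0 libraries and was 2.38-fold higher (log2 fold change 1.25 ± 0.27 (SE), edgeR adjusted p = 0.00374). Their ratio, Adamts10 over Adamts6 in RPKM, was 4.88, 4.88, 3.99 and 5.02 in the P8 libraries and 45.4, 19.1, 25.2 and 21.7 in the P0 libraries. For Adamts9 over Adamts20 it was 4.37, 4.62, 3.75 and 3.42 in the P8 libraries and 45.8, 31.8, 16.1 and 21.8 in the P0 libraries. These pairs were set together after their values were seen, and the ratios are given without a test. Adamts12 and Adamts7, relatives that cut a cartilage matrix protein, both fell. Adamts12 had 15.5, 16, 18.2 and 16.4 CPM in the P8 libraries, against 114, 117, 64.5 and 63.5 CPM in the P0 libraries (log2 fold change -2.37 ± 0.23 (SE), edgeR adjusted p = 3.71e-05). Adamts7 had 7.8, 8.15, 14.6 and 9.34 CPM in the P8 libraries, against 26.4, 38.5, 27.5 and 28.9 CPM in the P0 libraries (log2 fold change -1.53 ± 0.22 (SE), edgeR adjusted p = 0.000348), and its exons overlap those of Tbc1d2b.

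Adamts19 and Adamts18 rose at low levels. Adamts19, known from developing gonads and heart valves, stood at 6.13 ± 1.81 CPM at P8 and 1.53 ± 1.05 CPM at P0 (log2 fold change 2.07 ± 0.47 (SE), edgeR adjusted p = 0.00491). Adamts18 stood at 5.39 ± 1.85 CPM at P8 and 2.22 ± 1.35 CPM at P0 with overlapping ages (log2 fold change 1.34 ± 0.44 (SE), edgeR adjusted p = 0.0276). The call of Adamts18 was lost without P0 1, P8 3 or P8 4 (edgeR adjusted p = 0.064, 0.0804 and 0.0566). Adamts16, the relative of Adamts18, stood at 11.9 ± 3.4 CPM at P8 and 8.63 ± 1.33 CPM at P0, and Adamts17, the relative of Adamts19, at 8.68 ± 0.763 CPM at P8 and 13 ± 4.89 CPM at P0. Neither passed the test (edgeR adjusted p = 0.0836 and 0.163). Adamts13, the protease of von Willebrand factor, was not tested and reached 0.521 CPM at most.

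**Figure D5:**
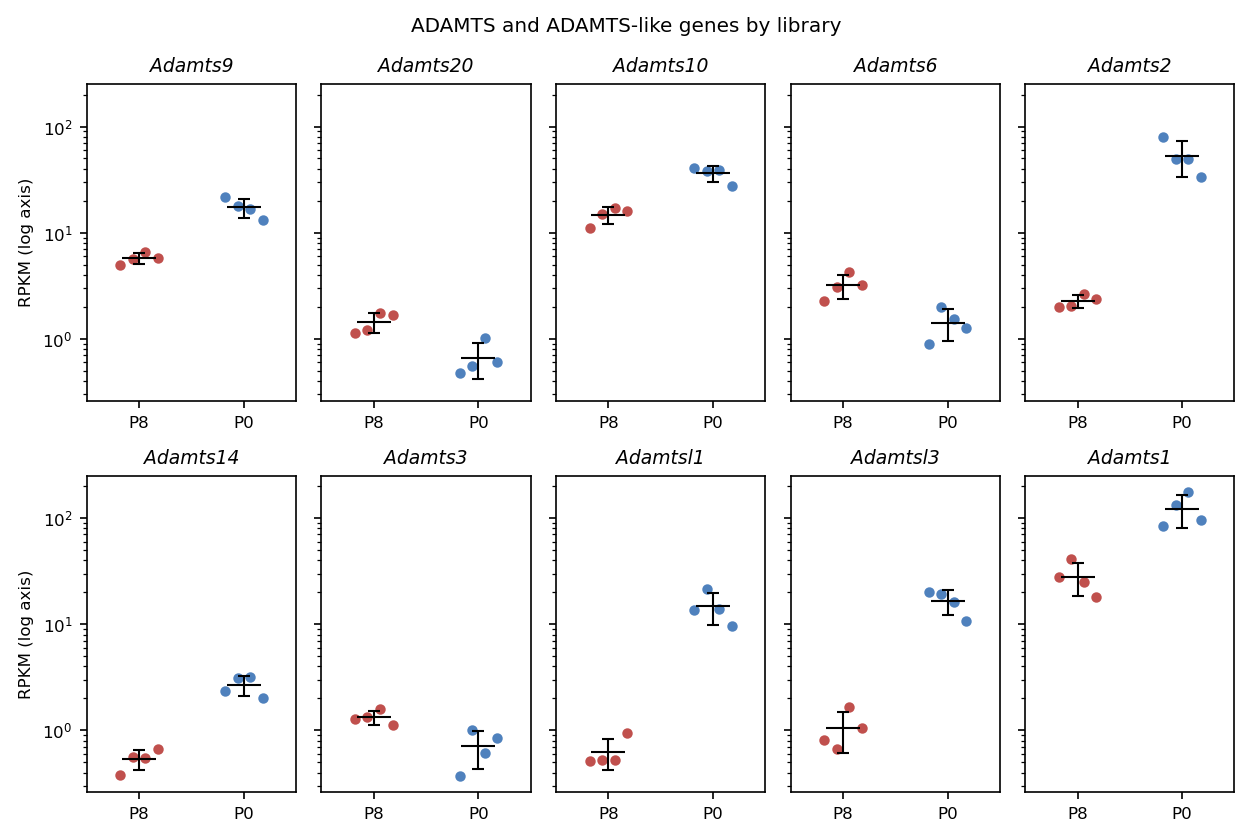
RPKM on a log y axis for 8 ADAMTS and 2 ADAMTS-like genes by library (points), with P8 left of P0 and lines and bars for mean and SD (n = 4). Adamts9, Adamts10, Adamts2 and Adamts14 are lower at P8 whereas their relatives Adamts20, Adamts6 and Adamts3 are higher, and Adamtsl1, Adamtsl3 and Adamts1 are lower.

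The ADAMTS-like genes fell together (80% of the 5, against 25% of all genes tested), with Adamtsl2 the exception. Their proteins bind fibrillin microfibrils and other matrix, and none has the zinc site. Adamtsl1 had 4.01, 4.14, 4.17 and 7.35 CPM in the P8 libraries, against 107, 169, 109 and 75.5 CPM in the P0 libraries, a 22.2-fold lower level at P8 (log2 fold change -4.47 ± 0.31 (SE), edgeR adjusted p = 5.59e-06). Adamtsl3 had 5.94, 4.89, 12.1 and 7.76 CPM in the P8 libraries, against 146, 141, 118 and 77.4 CPM in the P0 libraries and was 15.02-fold lower (log2 fold change -3.91 ± 0.31 (SE), edgeR adjusted p = 1.15e-05). Adamtsl4, which in humans anchors the lens, had 2.24, 2.62, 4.1 and 3.19 CPM in the P8 libraries, against 68.9, 58.3, 32.3 and 27.7 CPM in the P0 libraries and was 14.7-fold lower (log2 fold change -3.88 ± 0.35 (SE), edgeR adjusted p = 2.13e-05). Adamtsl5 had 0.997, 0.825, 1.22 and 1.37 CPM in the P8 libraries, against 29.8, 13.7, 9.59 and 7.2 CPM in the P0 libraries, with P0 1 the highest, and was 13.1-fold lower (log2 fold change -3.71 ± 0.46 (SE), edgeR adjusted p = 0.000154). Without P0 1 the log2 fold change of Adamtsl5 was -3.12 (edgeR adjusted p = 5.73e-05). No P8 library reached any P0 library in these 4 genes. Adamtsl2, which also binds the latent form of transforming growth factor beta, had 12.2, 11.7, 21.7 and 16.3 CPM in the P8 libraries, against 15.2, 9.93, 13.9 and 8.2 CPM in the P0 libraries and did not pass (log2 fold change 0.46 ± 0.26 (SE), edgeR adjusted p = 0.165). The summed level of the 5 genes was 6.05, 5.81, 10.4 and 8.4 RPKM in the P8 libraries and 67.8, 64.4, 46.5 and 32.8 RPKM in the P0 libraries. The sum was highest in P0 1 and lowest of its age in P0 4, as were the summed pericyte, smooth muscle and meningeal markers at 7234 and 3842 CPM, and their part was not tested. Adamtsl1 lies at chr4:85699819-86074289 (plus strand) and Adamtsl3 at chr7:89484204-89762960 (plus strand).

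Other genes of the pathway were taken from 2 lists. Of 19 regulators of these proteases 18 were tested, all but Tspan10. Of the 18, 9 were lower (50%), 3 were higher (16.7%) and 6 did not pass. Over all genes tested, 25% were lower and 24.5% higher. The largest changes were falls. Reck, a membrane-bound inhibitor of MMPs and of Adam10, had 6.97, 14.6, 10.4 and 14.9 CPM in the P8 libraries, against 116, 104, 83.7 and 63.5 CPM in the P0 libraries (log2 fold change -2.89 ± 0.29 (SE), edgeR adjusted p = 3.71e-05). The general protease trap A2m had 61, 80.7, 83.9 and 80.7 CPM in the P8 libraries, against 270.1, 559, 521 and 333 CPM in the P0 libraries (log2 fold change -2.37 ± 0.24 (SE), edgeR adjusted p = 4.13e-05). Pcsk5, a proprotein convertase that can cut the inactive forms of such enzymes, had 5.23, 10.7, 8.21 and 9.33 CPM in the P8 libraries, against 44.7, 46.1, 41.2 and 36.1 CPM in the P0 libraries (log2 fold change -2.25 ± 0.22 (SE), edgeR adjusted p = 3.75e-05). None of these 3 genes overlapped between ages. Of 9 regulators known to escort Adam17 or Adam10 to the cell surface, grouped and named after their values were seen, 3 rose, 2 fell, 3 did not pass and Tspan10 was not tested. Of those tested, 37.5% rose and 25% fell, against 24.5% and 25% of all genes tested. Rhbdf1, Tspan5 and Tspan14 rose. Rhbdf1 stood at 146 ± 20.3 CPM at P8 and 95.9 ± 9.74 CPM at P0, Tspan5 at 103 ± 10.9 CPM at P8 and 66.3 ± 11.1 CPM at P0 and Tspan14 at 118 ± 13 CPM at P8 and 94.1 ± 4.36 CPM at P0 (edgeR adjusted p = 0.00281, 0.00288 and 0.0255). Tspan33 fell and stood at 20.03 ± 1.37 CPM at P8 and 61.3 ± 19.1 CPM at P0 (log2 fold change -1.53 ± 0.20 (SE), edgeR adjusted p = 0.00023), and Tspan17 fell and stood at 8.86 ± 2.92 CPM at P8 and 16.6 ± 1.81 CPM at P0 (log2 fold change -0.83 ± 0.24 (SE), edgeR adjusted p = 0.0181). Rhbdf2 at 14.5 ± 7.68 CPM at P8 and 29 ± 12.5 CPM at P0, Tspan15 at 37.4 ± 4.65 CPM at P8 and 36.9 ± 3.86 CPM at P0 and Frmd8 at 58.5 ± 7.36 CPM at P8 and 54.4 ± 5.33 CPM at P0 did not pass (edgeR adjusted p = 0.0836, 0.541 and 0.285).

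Of 20 tested substrates and partners, 9 were higher (45%), 7 were lower (35%) and 4 did not pass. The shares of all genes tested were 24.5% higher and 25% lower. Bcan, which encodes the brain proteoglycan brevican that Adamts4 and Adamts5 cut, had 2328, 2506, 2561 and 2206 CPM in the P8 libraries, against 50.5, 121, 148 and 139.6 CPM in the P0 libraries (log2 fold change 4.47 ± 0.33 (SE), edgeR adjusted p = 7.72e-06). Fbn1, the fibrillin gene whose protein binds ADAMTS-like proteins, had 17.2, 31.9, 28 and 37.6 CPM in the P8 libraries, against 929, 1666, 1714 and 1062 CPM in the P0 libraries (log2 fold change -5.47 ± 0.33 (SE), edgeR adjusted p = 3.43e-06). Fbn2, the other fibrillin gene, had 7.86, 7.14, 20.3 and 11.6 CPM in the P8 libraries, against 323, 293, 206 and 173 CPM in the P0 libraries (log2 fold change -4.35 ± 0.37 (SE), edgeR adjusted p = 1.62e-05). The fibrillin genes and 4 of the 5 ADAMTS-like genes were thus all lower at P8, and the ages did not overlap in any of them. The median log2 fold change was -0.86 for the regulators and 0.76 for the substrates and partners, against 0.04 over all genes tested.

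In the authors' deposited table, 56 of the 83 genes have a value, 12 with a false discovery rate under 0.05 and higher at P8 and 27 lower. Of these 39 calls in the authors' deposited table, 39 were also called here in the same direction. Adam9 was the 1 gene called only here, with a false discovery rate of 0.217 in the authors' deposited table.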

How the data were processed

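RNA from 8 libraries, 4 of P8 and 4 of P0, was sequenced from a TruSeq kit that does not mark strand, per the labels' protocols. The authors deposited 1 table with whole-number read counts per gene, CPM (count over library total) and RPKM (CPM per kilobase of listed length), per the file headers. The table also holds the authors' comparison of the ages, with its log2 fold changes and p-values. Per the submitters' processing notes, TopHat and mm9 were used, and no source used here names the read counter or annotation.

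Differences in counts were assessed by edgeR 4.0.16 under R 4.3.3 (quasi-likelihood F test, TMM factors, filterByExpr with a minimum count of 10 and a minimum total of 15). P-values were Benjamini-Hochberg adjusted over all 16808 genes tested and called under 0.05. Fold changes come from this fit, and standard errors are implied by its F statistic. The script was tested on simulated data. CPM and RPKM are as deposited, without TMM factors, and errors beside means are SDs over 4 libraries. Totals of 30708719 to 94308235 counts set the floor of 3 counts.

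The genes and lists were chosen with earlier results of these data known. Full values are given for Adam10, Adam17, Mmp2, Mmp9, Mmp14, the TIMP genes and every called member with a 2-fold change and at least 10 CPM at 1 age. They are also given for Adam11, Adam22, Adam23, Adamts3 and Adamtsl2, chosen after their values were seen. Of each pathway list the 3 called genes with the largest change are named by rule. Alternatives were other size factors (RLE), total counts alone, DESeq2 1.42.0, filters of 1 count in any library or 1 CPM in 4 libraries, the replicate number as a block, and leaving out each library. Positions and coding sequence come from GENCODE M1 on NCBIM37, promoters from RefSeq on GRCm38.p6, and coordinates of these builds were not converted. Sequences from chromosome 18 are not shown.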

Additional observations from a re-analysis of the deposited data

Results flagged for a closer look

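In 5 of 110 groups of 4 libraries, 1 library stood far from the other 3, its gap to the nearest passing Dixon's critical value at the 95% level. Chance gives about 1 in 20 such groups. Adam5 stood at 1.79 CPM in P8 4, with the nearest P8 library at 0.903 CPM. Adamts5 stood at 11.5 CPM in P8 2, with the nearest at 9.29 CPM. Adamtsl1 stood at 7.35 CPM in P8 4, with the nearest at 4.17 CPM. Mmp15 stood at 198 CPM in P8 3, with the nearest at 119.7 CPM. Mmp17 stood at 30.6 CPM in P8 3, with the nearest at 19.8 CPM. All 5 were the highest library of P8.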

How the results depend on the processing

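Over the 7 kinds of alternative, 10 to 15 members were called higher at P8 and 25 to 29 lower, against 13 and 27. Leaving out 1 library gave 10 to 14 higher and 25 to 27 lower, and 6979 to 8360 genes called in all. Of the values of single genes under alternatives, 577 kept direction and side of the threshold, 33 lost the call, 3 gained one and 1 changed sign: Mmp9, not called, had log2 fold changes of -0.045 (without P8 2, edgeR adjusted p = 0.921) to 0.53 when each library was left out. Adam9 also lost its call under RLE factors, total counts, the filter of 1 count and the block (adjusted p = 0.0699, 0.129, 0.0542 and 0.0822). Adam22 lost it under RLE factors, total counts and the block (0.0507, 0.0759 and 0.0623), and Adam33 under the filter of 1 count (0.0543). The median log2 fold change of all genes lay between -0.04 and 0.06 over these alternatives. Same-numbered libraries correlated at -0.131, -0.0563, 0.0641 and 0.0456 in their deviations from the age means, and differently numbered ones at -0.128 to 0.229. With 4 libraries per age these values cannot show whether the numbers mark pairs, and the labels do not say. With the replicate block, 7355 genes were called, 11 members higher and 27 lower. The biological coefficient of variation was 30.6%. Members under about 1 CPM are limited by depth.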
